A study of Bos taurus with 23 samples.

Results

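RIN3, VPS26B and PIK3C3 are 3 genes of endosome trafficking, and their transcript levels were followed in endometrial biopsies of 23 Holstein cows, with 1 RNA sequencing library per cow. They are 3 of the 24616 genes in the count files and 3 of the 14852 genes that passed the filter on low counts. They were chosen by the difference in expression between cows that later were pregnant and cows that were not, as members of a list of 50 genes that the study had picked on that contrast, in part on these cows. Over its combined datasets the study listed RIN3 as higher, and VPS26B and PIK3C3 as lower, in animals that became pregnant. The difference between pregnant and non-pregnant cows therefore belongs to the choice of the genes and is described below without a test. Parity, days from calving and the properties of the libraries did not enter that choice, and these were tested. The co-variation of the 3 genes over all cows carries the pregnancy contrast with it, so it is described without a test there and tested only within the groups or with pregnancy status removed.

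By the labels, the biopsies were taken between days 6 and 8 of the cycle, and each cow received 1 in-vitro produced embryo between days 6 and 8 of her next cycle. Pregnancy was read after slaughter between days 26 and 47, when 12 cows were pregnant and 11 were non-pregnant. The labels name no other treatment. Of the pregnant cows, 7 were of parity 1, 2 of parity 2 and 3 of parity 3, and of the non-pregnant cows, 5 were of parity 1, 3 of parity 2 and 3 of parity 3. The time from the last calving to transfer ranged from 128 to 274 days in pregnant cows and from 130 to 261 days in non-pregnant cows. The biopsies preceded the embryo by a cycle, so no embryo was present when the RNA was taken.

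Endosomes receive what a cell takes up from its surface and send it either back to the membrane or on to lysosomes. The small GTPase Rab5 marks early endosomes and is switched on by exchange factors such as RIN3. Active Rab5 recruits the lipid kinase PIK3C3, which makes phosphatidylinositol 3-phosphate, the lipid to which many sorting proteins of the endosome bind, and which also serves autophagy. VPS26B is a subunit of retromer, the coat that carries receptors and transporters out of the endosome before they reach the lysosome. In the endometrium, uptake and recycling of this kind take place in the glandular and luminal epithelium as well as in stromal and immune cells. In a biopsy the share of each cell type and the RNA per cell cannot be told apart.

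The libraries held between 6920879 and 27357249 counts in genes (median 18730880). Of the reads counted in genes, outside genes or as ambiguous, between 39.2% and 76.7% lay outside annotated genes, and pregnant replicates 20 and 21 stood apart with 75.5% and 76.7%, against at most 59.6% in the other 21 cows. These libraries also had the fewest counts in genes, which is not the same as the fewest reads. A further 4 libraries, pregnant replicates 22 and 23 with non-pregnant replicates 4 and 6, were separate on the first principal component of all genes, at 50.5 to 98.5 against at most 10.4. Values without some or all of these 6 libraries are given beside several results. The files name genes by identifier alone, so marker genes of the endometrium and of its cell types could not be looked up.

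RIN3 (ENSBTAG00000010416), the exchange factor that loads Rab5 with GTP, was the member whose level varied most between cows. Levels are given as CPM, the counts of a gene scaled to a library of fixed size after TMM normalization, and are compared only within a gene because they are not corrected for length. RIN3 ranged from 1.76 to 10.3 CPM over the 23 cows (median 3.88), a coefficient of variation of 47.2%. Of all tested genes, 69.3% had a smaller coefficient of variation, and their median was 32.0%. The RIN3 counts were low, from 26 to 285 per library, and counting error gave a coefficient of variation of 12.1%, or 6.6% of the squared variation. Most of the spread in RIN3 thus did not come from the counting. Each library is a separate cow, so differences between cows could not be told apart from differences between biopsies or between libraries.

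The high RIN3 values came from 4 cows, all of them pregnant and all of parity 1. Pregnant replicate 7 had 10.3 CPM, replicate 20 had 9.0 CPM, replicate 5 had 8.61 CPM and replicate 23 had 8.26 CPM. The other 19 cows reached at most 5.38 CPM, in pregnant replicate 10. At the edge of this gap the 95% exact Poisson intervals, which cover counting error only, came close without overlapping, at 6.63 to 10.2 CPM for replicate 23 and 4.38 to 6.53 CPM for replicate 10. The 4 cows were between 156 and 261 days from calving. Replicate 20 is a library with 75.5% of its reads outside genes, replicate 23 lies apart on the first component, and replicates 5 and 7 do neither. Replicate 5 had the lowest TMM factor of all libraries, 0.765, against 1.04 in replicate 10, and their levels rested on 103 and 101 counts. They had 15649554 and 18114782 counts in genes, so without the factors their levels lie closer together than 8.61 and 5.38 CPM. The gap under the 4 cows thus leans on these factors and is narrower on total counts, where it was not tested. Scaling to total counts alone, added after the values were seen, left the RIN3 difference between pregnant and non-pregnant cows at 0.67 on the log2 scale. That value covers the groups and not the gap.

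In pregnant cows RIN3 had 3.08 CPM at the lowest, 4.84 at the median and 10.3 at the highest, with a mean of 5.75 ± 2.56 CPM (SD, n = 12). In non-pregnant cows it had 1.76 CPM at the lowest, 3.59 at the median and 4.36 at the highest, with a mean of 3.49 ± 0.743 CPM (SD, n = 11). The groups overlapped: 7 of 12 pregnant cows lay above every non-pregnant cow, and the other 5 lay within the non-pregnant range. The log2 fold change, pregnant minus non-pregnant, was 0.72 (standard error 0.22), or 1.64-fold. This is the contrast on which the study chose the gene. Over all 14852 genes edgeR's quasi-likelihood test called 0 genes (0%) in this contrast at an adjusted p of 0.05, DESeq2's Wald test called 10 (0.0673%), 10.5% had an unadjusted p under 0.05 by edgeR, and 56.1% had a log2 fold change above 0. Without the 6 libraries apart the RIN3 difference was 0.72, and without any single cow it stayed between 0.61 (without pregnant replicate 7) and 0.77 (without pregnant replicate 21).

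VPS26B (ENSBTAG00000014838), the retromer subunit, varied less. It ranged from 10.1 to 20.5 CPM over the 23 cows (median 14.6), with a coefficient of variation of 18.5%, and 18.0% of tested genes varied less. Its counts ran from 88 to 553 per library, and counting error made up 12.9% of its squared variation, the largest part among the 3 genes. The lowest levels were in pregnant replicates 22 and 5, at 10.1 and 10.3 CPM, and in non-pregnant replicate 1, at 10.8 CPM. The highest were in non-pregnant replicates 16 and 12, at 20.5 and 18.7 CPM. Pregnant cows had 10.1 CPM at the lowest, 14.1 at the median and 17.1 at the highest (mean 13.6 ± 2.42 CPM, SD, n = 12). Non-pregnant cows had 10.8 CPM at the lowest, 15.0 at the median and 20.5 at the highest (mean 15.5 ± 2.73 CPM, SD, n = 11). All but 4 cows lay in the range that both groups share, the exceptions being 2 non-pregnant cows above it and 2 pregnant cows below it. The log2 fold change was -0.18 (standard error 0.11), which is smaller than the SD within groups, and it was -0.17 without the 6 libraries apart.

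PIK3C3 (ENSBTAG00000026290), the lipid kinase, was the steadiest of the 3 genes. It ranged from 58.7 to 101.8 CPM (median 72.8), a coefficient of variation of 14.6%, and 7.64% of tested genes varied less. With 743 to 2026 counts per library it was also the member measured with the smallest counting error, 2.82%. Pregnant cows had 58.7 CPM at the lowest, 78.3 at the median and 101.8 at the highest (mean 78.2 ± 13.1 CPM, SD, n = 12). Non-pregnant cows had 61.4 CPM at the lowest, 70.1 at the median and 88.5 at the highest (mean 71.3 ± 6.9 CPM, SD, n = 11). The groups overlapped over most of their range, with 3 pregnant cows above every non-pregnant cow and 1 pregnant cow below them all. Those 3 were pregnant replicates 21, 20 and 22, which are 3 of the 6 libraries apart. The log2 fold change was 0.13 (standard error 0.088), and it was 0.06 without pregnant replicates 20 and 21. It was -0.02 without all 6 libraries and also -0.02 with the share of reads outside genes in the model, so the direction of PIK3C3 between the groups depended on these libraries. Both values of -0.02 were smaller in size than their standard errors, 0.089 and 0.069. The positive value over all cows is opposite to the lower level in pregnant animals that the study listed. That list rested on fewer Holstein samples than are used here, together with animals of other breeds. The directions thus come from different sets of animals, and whether they differ in the same cows was not tested.

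**Figure D1:**
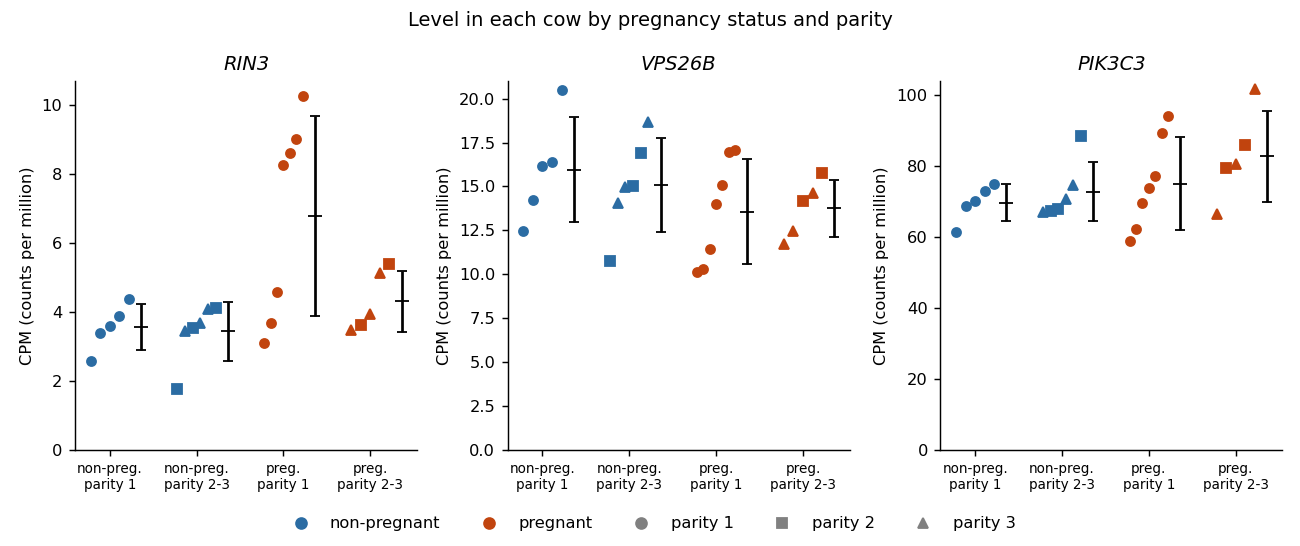
CPM (y axis) of RIN3, VPS26B and PIK3C3 in each of the 23 cows, in 4 columns by pregnancy status and parity (1, or 2 and 3), with 1 point per cow and black bars for the mean ± SD of the column. The 4 highest RIN3 values, 8.26 to 10.3 CPM, lie in the column of pregnant cows of parity 1, while the columns of VPS26B and PIK3C3 overlap.

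The comparison by parity sets cows of parity 1 against cows of parity 2 or 3. RIN3 was at 5.44 ± 2.75 CPM (SD, n = 12) in parity 1 and at 3.83 ± 0.943 CPM (SD, n = 11) in parity 2 or 3. Parity 1 cows had 2.57 CPM at the lowest, 4.12 at the median and 10.3 at the highest, and cows of parity 2 or 3 had 1.76, 3.66 and 5.38 CPM. Of the cows of parity 1, 4 lay above every cow of parity 2 or 3, and these are the 4 high cows named above. With pregnancy status and days from calving in the model, the log2 difference was -0.46 (standard error 0.20, 95% interval -0.88 to -0.04), with an unadjusted p of 0.035 and an adjusted p of 0.73 from edgeR's quasi-likelihood test. It did not pass the test over all genes. In this contrast 0 of 14852 genes (0%) were called by edgeR and 1 (0.00673%) by DESeq2. An unadjusted p under 0.05 by edgeR was reached by 1007 genes (6.78%), and 48.2% of all genes had a log2 difference above 0. The unadjusted p stayed under 0.05 in 15 of 23 fits that left out 1 cow each, and the difference ranged from -0.52 to -0.39 in them. Without the 6 libraries apart, which include 2 of the 4 high cows, it was -0.42 (unadjusted p = 0.0659, edgeR adjusted p = 0.821), and with total counts alone, an alternative added after the values were seen, it was -0.36 (unadjusted p = 0.0897).

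The RIN3 levels by parity were farther apart in pregnant than in non-pregnant cows, but the test of that difference did not pass. Pregnant cows of parity 1 had 6.78 ± 2.91 CPM (SD, n = 7) and those of parity 2 or 3 had 4.3 ± 0.882 CPM (SD, n = 5). Non-pregnant cows had 3.56 ± 0.663 CPM (SD, n = 5) in parity 1 and 3.43 ± 0.862 CPM (SD, n = 6) in parity 2 or 3. Put the other way, pregnant cows had 1.9 times the mean RIN3 level of non-pregnant cows in parity 1 and 1.25 times in parity 2 or 3. The interaction of pregnancy status with parity was -0.60 on the log2 scale (standard error 0.42, 95% interval -1.46 to 0.26, edgeR adjusted p = 0.988), and -0.38 with days from calving in the model. On the interaction edgeR called 0 of 14852 genes (0%) and DESeq2 called 0 (0%), while 443 genes (2.98%) had an unadjusted p under 0.05 by edgeR and 47.8% had a log2 value above 0. With 5 to 7 cows in each of the 4 groups, an interaction of this size could not be resolved.

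The levels of VPS26B nearly coincided between the parity classes. Cows of parity 1 had 14.6 ± 3.11 CPM (SD, n = 12) and cows of parity 2 or 3 had 14.5 ± 2.27 CPM (SD, n = 11). The log2 difference was 0.04 (standard error 0.12, 95% interval -0.21 to 0.29, edgeR adjusted p = 0.949), and its sign changed between models. PIK3C3 was at 72.7 ± 10.6 CPM (SD, n = 12) in parity 1 and at 77.3 ± 11.3 CPM (SD, n = 11) in parity 2 or 3. Its log2 difference of 0.15 (standard error 0.093, 95% interval -0.05 to 0.34, edgeR adjusted p = 0.751) did not pass. Without pregnant replicate 21, a cow of parity 3 with 76.7% of its reads outside genes, it was 0.09. With total counts alone it was 0.25 (unadjusted p = 0.039, edgeR adjusted p = 0.555). The intervals leave room for differences of up to 1.23-fold in VPS26B and 1.27-fold in PIK3C3. The interaction with pregnancy status was 0.10 for VPS26B (standard error 0.24, 95% interval -0.40 to 0.60) and 0.08 for PIK3C3 (standard error 0.18, 95% interval -0.29 to 0.45), both with an edgeR adjusted p of 0.988.

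The next comparison follows the 3 genes along the interval from calving to transfer. RIN3 had a slope of 0.50 log2 units per 100 days in the fit with pregnancy status and parity (standard error 0.23, 95% interval 0.02 to 0.98), and this slope did not pass the test over all genes (unadjusted p = 0.0432, edgeR adjusted p = 0.931). Over all genes edgeR called 0 of 14852 (0%) on days from calving and DESeq2 called 1 (0.00673%), while 793 genes (5.34%) had an unadjusted p under 0.05 by edgeR and 51.5% had a slope above 0. In the 6 cows under 150 days RIN3 lay between 2.57 and 5.11 CPM (median 3.49), and in the 8 cows over 200 days between 3.54 and 10.3 CPM (median 4.01). The ranges overlapped, with high values in the later cows in pregnant replicates 5 and 7 only. Without pregnant replicate 7, at 261 days, the slope was 0.38, and the unadjusted p stayed under 0.05 in 11 of 23 fits that left out 1 cow. Within parity 1 the slope was 0.80 (standard error 0.35) and within parity 2 or 3 it was 0.03 (standard error 0.33), a split added after the values were seen whose difference was not tested.

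VPS26B had a slope of the opposite sign, -0.23 log2 units per 100 days (standard error 0.14, 95% interval -0.51 to 0.05, edgeR adjusted p = 0.947). The 8 cows over 200 days had VPS26B between 10.3 and 15.0 CPM (median 14.0), and the 6 cows under 150 days between 12.5 and 20.5 CPM (median 16.3). No cow over 200 days reached the upper levels of the early cows, yet the slope did not pass the test. The negative sign held with each cow left out, between -0.31 and -0.19. In fits within each group, added after the values were seen, the slope was -0.48 in non-pregnant cows (unadjusted p = 0.0402, edgeR adjusted p = 0.744) and -0.11 in pregnant cows, and their difference was not tested. PIK3C3 had a slope of -0.13 (standard error 0.11, 95% interval -0.35 to 0.09, edgeR adjusted p = 0.965). Without pregnant replicate 7, which had the lowest PIK3C3 of all cows, 58.7 CPM, the slope was -0.06, and it was also -0.06 without the 6 libraries apart. In added fits by parity it was -0.35 within parity 1 (unadjusted p = 0.0371, edgeR adjusted p = 0.636) and 0.07 within parity 2 or 3, and that difference was not tested either. In a fit without pregnancy status, parity and days from calving together took up 26.2% of the variance of log2 CPM in RIN3, 13.4% in VPS26B and 11.4% in PIK3C3. These shares are not adjusted for the number of predictors, which raises them even without an effect. They were not tested or set against all genes.

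**Figure D2:**
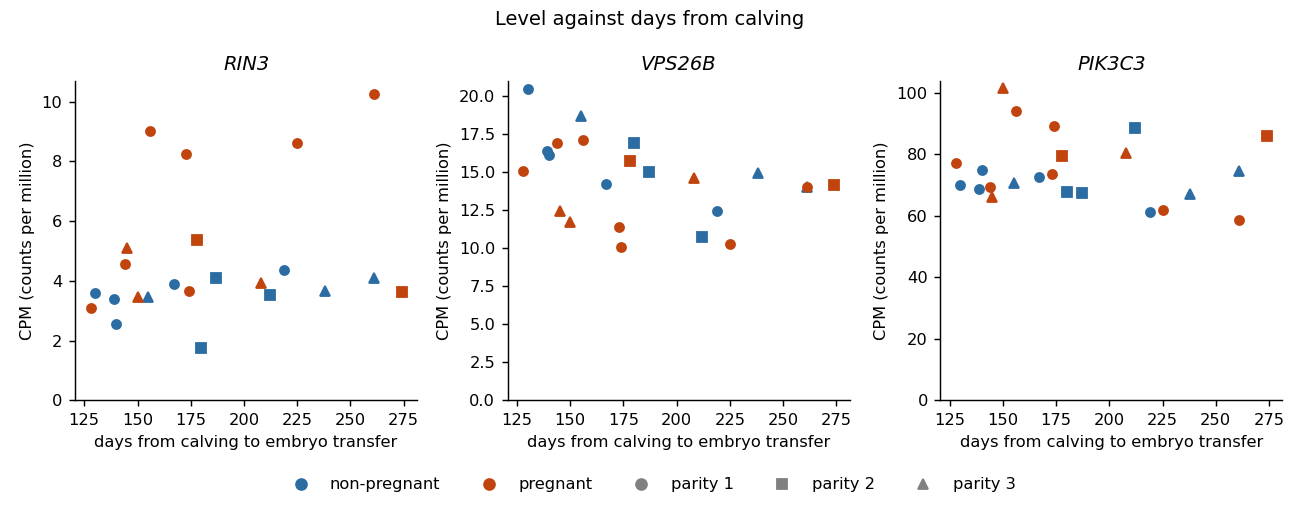
CPM (y axis) of RIN3, VPS26B and PIK3C3 against days from calving to embryo transfer (x axis) in the 23 cows, coloured by pregnancy status and shaped by parity. The 8 cows over 200 days reach 10.3 CPM in RIN3 and at most 15.0 CPM in VPS26B, and no slope passed the test over all genes.

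**Figure D3:**
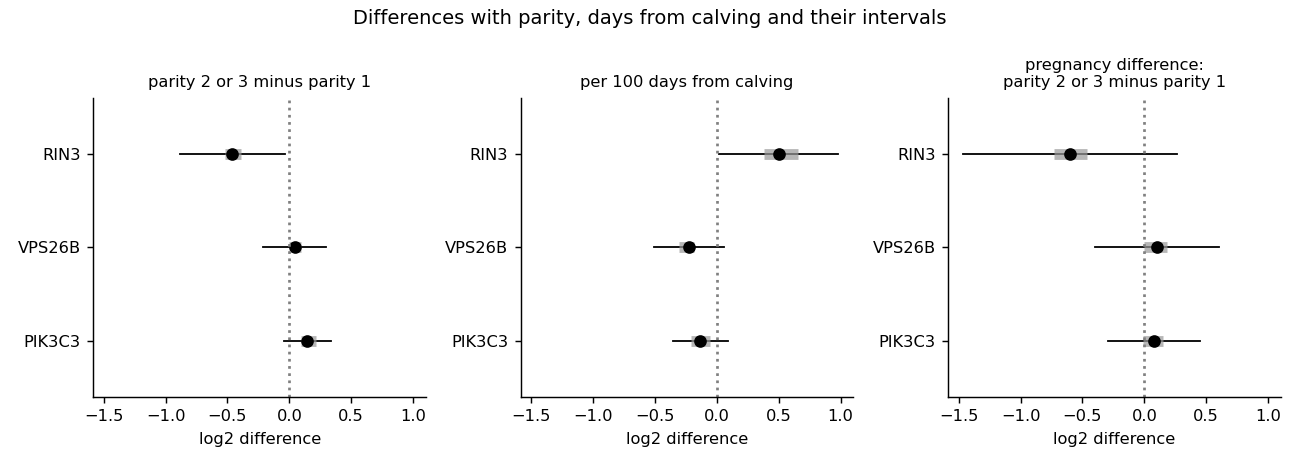
Log2 difference (x axis) of each gene (y axis) for parity 2 or 3 minus parity 1, per 100 days from calving, and for the interaction of pregnancy status with parity, with black lines for the 95% interval and grey bars for the range over fits that left out 1 cow each. RIN3 lies at -0.46, 0.50 and -0.60, and its interval includes 0 for the interaction only. The intervals of VPS26B and PIK3C3 include 0 in all 3 panels. The intervals are not adjusted for the number of genes, and no value of any of the 3 genes passed the test over all genes.

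PIK3C3 followed the share of reads outside annotated genes closely. Its highest levels were in pregnant replicate 21 (101.8 CPM, 76.7% outside genes), pregnant replicate 20 (94.0 CPM, 75.5%), pregnant replicate 22 (89.4 CPM, 59.2%), non-pregnant replicate 1 (88.5 CPM, 59.6%) and pregnant replicate 15 (85.9 CPM, 55.4%). These 5 cows were all among the 6 with the highest share. The other 18 cows had at most 80.4 CPM. Across the 23 cows Pearson's r between log2 CPM and the share was 0.803 (permutation p = 1e-05, the smallest that the permutations can give, adjusted p = 9e-05 over 9 relations). Spearman's rho was 0.665 (permutation p = 0.00072, adjusted p = 0.00648). Without the 2 cows farthest from the median share, pregnant replicates 20 and 21, r was 0.655. Only 0.37% of the tested genes had a higher r with this share, and the median over all genes was -0.01.

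The relation of PIK3C3 to the share of reads outside genes held within the pregnant cows (r = 0.834, permutation p = 0.00048, adjusted p = 0.00288 over 6 relations, rho = 0.86) and less clearly within the non-pregnant cows (r = 0.581, permutation p = 0.0692, adjusted p = 0.138, rho = 0.173). In the non-pregnant cows it rested on replicates 1 and 2, since r was -0.04 without them. In pregnant cows alone, r without replicates 20 and 21 was 0.722. The median share was 52.6% for the pregnant cows and 46.8% for the others. PIK3C3 was also lower in libraries with more counts in genes (r = -0.652 with their log2, permutation p = 0.00073, adjusted p = 0.00328), a measure that shares replicates 20 and 21 as its extremes, and r without them was -0.34. What raises the share in some libraries was not tested.

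VPS26B had the opposite sign and did not pass, with r = -0.351 (permutation p = 0.0988, adjusted p = 0.148) and rho = -0.45 (permutation p = 0.0322, adjusted p = 0.0724) for the share of reads outside genes. Without pregnant replicates 20 and 21 its r was -0.602 and its rho -0.571, so that those libraries lay off the trend of the other 21. RIN3 showed no relation that could be resolved (r = 0.223, permutation p = 0.307, adjusted p = 0.395, rho = 0.157). On the first principal component, taken in the 19 libraries that were not apart on it, VPS26B had r = -0.592 (permutation p = 0.00822, adjusted p = 0.0247), which dropped to -0.19 without pregnant replicates 5 and 21. RIN3 had r = 0.511 there (permutation p = 0.0264, adjusted p = 0.0594) and PIK3C3 r = 0.165 (permutation p = 0.5).

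**Figure D4:**
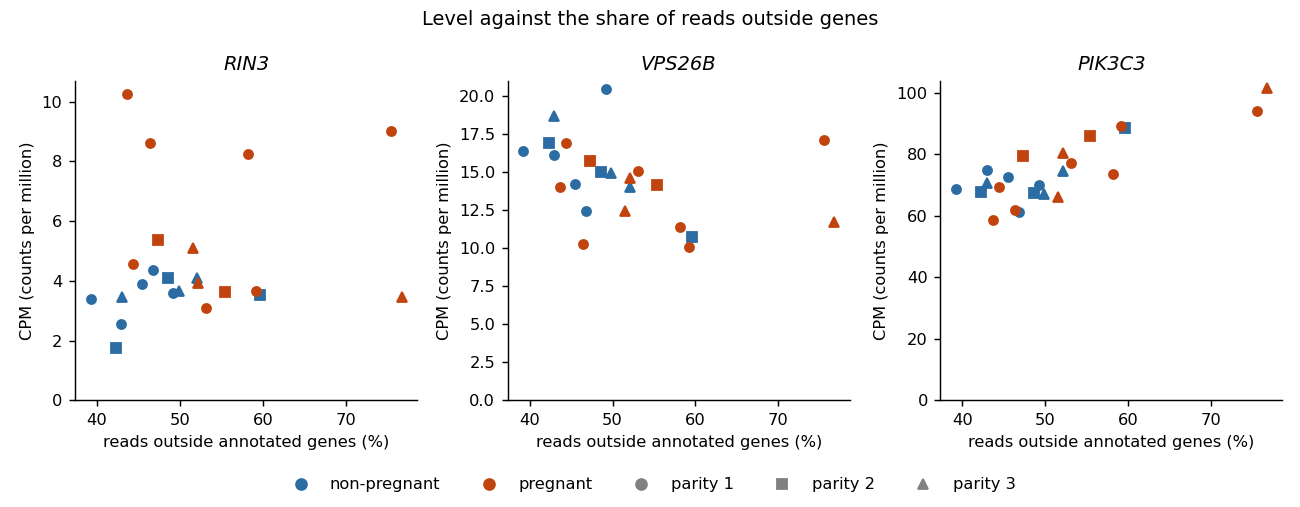
CPM (y axis) of RIN3, VPS26B and PIK3C3 against the percentage of reads outside annotated genes (x axis) in the 23 cows, coloured by pregnancy status and shaped by parity. PIK3C3 is higher where the share is larger (r = 0.803), with pregnant replicates 20 and 21 at the far right.

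Over all 23 cows the 3 genes had weak negative correlations with each other. RIN3 and VPS26B had r = -0.287 and rho = -0.292, RIN3 and PIK3C3 had r = -0.165 and rho = -0.269, and VPS26B and PIK3C3 had r = -0.168 and rho = -0.04. Without the 2 cows farthest from the median of the first gene r was -0.474, -0.211 and -0.208 for the same pairs. These values include the pregnancy contrast on which the genes were chosen and are given as a description. Without pregnant replicates 20 and 21, r was -0.447 for RIN3 and VPS26B and -0.367 for RIN3 and PIK3C3, and without all 6 libraries apart it was -0.465 and -0.449. For VPS26B and PIK3C3 it was -0.18 and -0.06. The size of the RIN3 and PIK3C3 correlation thus depended on the libraries kept. After the share of reads outside genes was regressed out, a step added once the values had been seen, it was -0.592, or -0.405 without pregnant replicates 5 and 7.

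With pregnancy status, parity and days removed, no pair passed a test. RIN3 and VPS26B had r = 0.02 (permutation p = 0.917, adjusted p = 0.917 over the 3 pairs) and rho = -0.01 (permutation p = 0.954). RIN3 and PIK3C3 had r = -0.258 (permutation p = 0.236, adjusted p = 0.549) and rho = -0.262 (permutation p = 0.228). VPS26B and PIK3C3 had r = -0.197 (permutation p = 0.366, adjusted p = 0.549) and rho = -0.121 (permutation p = 0.583). Within the pregnant cows RIN3 and PIK3C3 had r = -0.514 (n = 12, permutation p = 0.0881, adjusted p = 0.264) and rho = -0.497 (permutation p = 0.103, adjusted p = 0.309). Pregnant replicate 7 had the highest RIN3 and the lowest PIK3C3 of all cows. Without pregnant replicates 7 and 20, the farthest from the median RIN3 of the pregnant cows, r was -0.677 and rho was -0.685. Within the non-pregnant cows the same pair had r = -0.07 (n = 11, permutation p = 0.816, adjusted p = 0.816) and rho = -0.345 (permutation p = 0.3). RIN3 and VPS26B had r = -0.341 and rho = -0.564 (permutation p = 0.075, adjusted p = 0.225) in non-pregnant cows. In pregnant cows that pair had r = -0.02 and rho = 0.049. VPS26B and PIK3C3 had r = -0.362 and rho = -0.127 in non-pregnant cows, and r = 0.067 and rho = 0.126 in pregnant cows. No pair passed within either group.

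**Figure D5:**
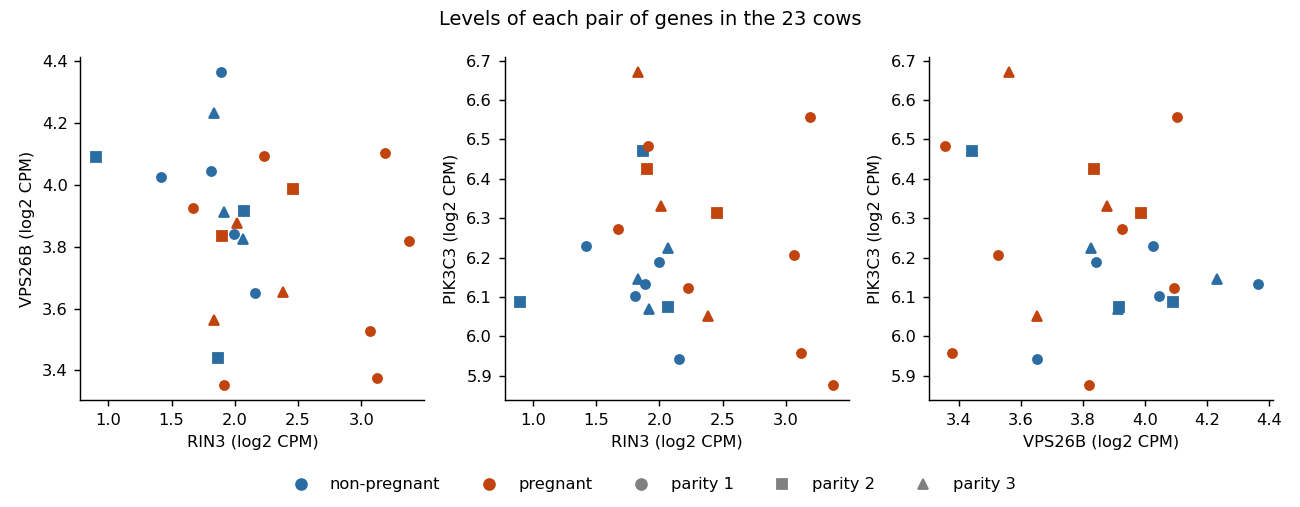
Log2 CPM of RIN3 against VPS26B, RIN3 against PIK3C3 and VPS26B against PIK3C3 in the 23 cows, coloured by pregnancy status and shaped by parity. The points scatter without a clear line (r = -0.287, -0.165 and -0.168), with the 4 cows of high RIN3 at the right of the first 2 panels.

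Some genes followed each member closely across cows, but the 5 nearest of each carry no symbol in the sources used here. For RIN3, the Spearman correlations of the 5 nearest genes over the 23 cows ran from 0.79 to 0.834, for VPS26B from 0.827 to 0.847 and for PIK3C3 from 0.785 to 0.826. The middle 90% of all tested genes lay between -0.5 and 0.508 for RIN3, between -0.568 and 0.56 for VPS26B and between -0.456 and 0.44 for PIK3C3. None of the 15 nearest genes was among the 50 genes of the study's list. Among the other 47 genes of the list, which the study chose on the pregnancy contrast as it did the members, the genes most like RIN3 included TRIB1, a pseudokinase adaptor of protein degradation (rho = 0.55), SMPD4, a neutral sphingomyelinase (rho = 0.535), and HHEX, a homeobox factor (rho = 0.523). VPS26B was most like SUCLG2, part of the succinyl-CoA ligase of the mitochondrial citrate cycle (rho = 0.535), and SLC35A3, a transporter of a nucleotide sugar into the Golgi (rho = 0.472). PIK3C3 was most like CCNG2, an atypical cyclin (rho = 0.435), ZSCAN12, a zinc finger protein (rho = 0.429), and ACADM, the medium-chain acyl-CoA dehydrogenase of fatty acid oxidation (rho = 0.427). Of these values, those of RIN3 lay above the middle 90% of all genes and those of VPS26B and PIK3C3 within it. The study listed each of these genes in the same direction as its member, and that choice favours positive values. Pregnancy status was not removed, and the genes at large were not chosen in this way. The place of these values among all genes is thus a description and no test. The order also depended on the libraries: in the 17 libraries without the 6 apart, rho with PIK3C3 was 0.265 for CCNG2, 0.397 for ZSCAN12 and 0.287 for ACADM, and FN3KRP led at 0.625. There rho with RIN3 was 0.429 for TRIB1, 0.539 for SMPD4 and 0.471 for HHEX, with EBF4 highest at 0.721, while SUCLG2 stayed the nearest to VPS26B at 0.699. These values describe the 23 cows, whose libraries differ in counts in genes and in the share of reads outside genes.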

How the data were processed

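Libraries were stranded total RNA. The authors deposited HTSeq counts per Ensembl gene, with STAR and UMD3.1 named in the submitters' processing notes. For tool versions, annotation release and strand setting the entry is "not given in the sources used here", so reads of genes overlapping the members on either strand may be included. Groups followed the labelled pregnancy status, and replicate numbers are those of the titles. In R 4.3.3, genes were kept by edgeR 4.0.16 defaults, normalized by TMM and tested with the quasi-likelihood test in 1 model of pregnancy status, parity class (2 or 3 against 1) and days from calving, with Benjamini-Hochberg adjustment over all genes. The interaction and the pregnancy contrast had models of their own. Standard errors of the edgeR values were worked back from the log2 difference and the F statistic of its test, and the intervals used them. DESeq2 1.42.0 gave the Wald test and the vst. Correlations used log2 CPM (prior count 2) and two-sided tests with 1e+05 permutations. Reads outside genes are a share of reads in genes, outside genes and ambiguous.

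The members and lists were chosen with earlier results of these data known. Named were the members, the 5 genes nearest to each, and, chosen after their values were seen, genes of the study's list. Lists for the Rab5 module, retromer, the class III kinase complexes, endosome cargo, partner proteins and cell type markers could not be used, since 0 identifiers of the files matched the reference table of ARS-UCD2.0. The fits were tested on simulated data. Each library is a separate cow.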

Additional observations from a re-analysis of the deposited data

Results flagged for a closer look

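In the 6 non-pregnant cows of parity 2 or 3, RIN3 in replicate 19, at 1.76 CPM, lay far under the others, with a gap of 0.725 of the group's range against a limit of 0.625. It rests on 33 counts, with a 95% exact Poisson interval of 1.21 to 2.47 CPM that covers counting error only. In the same 6 cows PIK3C3 in replicate 1, at 88.5 CPM, lay above the others, with a gap of 0.643 of the range. That library had 59.6% of its reads outside genes, the highest share among the non-pregnant cows. Of 18 groups examined, 2 held such a cow, and chance alone gives about 5% of groups.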

How the results depend on the processing

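No paired analysis was possible because the replicate numbers run through both groups without being shared. No alternative brought a member past the threshold for parity, days or the interaction. VPS26B turned from 0.04 with parity to -0.0476 without the 4 libraries apart and to -0.00945 with parity class alone, and PIK3C3 from -0.13 per 100 days to 0.0658 within parity 2 or 3 (-0.35 within parity 1). With 1 cow left out at a time, the interaction ranged from -0.00443 to 0.184 for VPS26B and from -0.00683 to 0.15 for PIK3C3, and r of RIN3 and PIK3C3 from -0.362 (without pregnant replicate 20) to 0.0037 (without pregnant replicate 7). DESeq2's Wald test called 1 gene on parity, 1 on days and 10 on pregnancy status, where edgeR called 0. Without 1 cow edgeR called 0 to 1 gene on pregnancy status. For RIN3 and VPS26B r turned to 0.0231 in residuals after status, parity and days. For VPS26B and PIK3C3 it turned to 0.203 in residuals after the share of reads outside genes and to 0.21 with total counts. For RIN3 and PIK3C3 it was -0.592 in residuals after that share. The cause was not tested for any of these. The RIN3 interval on parity reaches from 0.542-fold to 0.976-fold, which is the limit these 23 cows set.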

Other observations

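Some genes of the study's list ran against the members across the 23 cows, a description chosen after the values were seen. The study chose all of these genes on the pregnancy contrast, and listed each gene named here in the direction opposite to its member. That choice favours opposite signs. Pregnancy status was not removed from these values, and none of them was tested. VPS26B was opposed most by SMARCAL1, an annealing helicase that restarts stalled replication forks, with a Spearman rho of -0.822, the 14th lowest of 14851 genes. It was also opposed by DIDO1, a chromatin-associated protein (rho = -0.711), and BHLHE40, a repressor that acts on clock genes (rho = -0.61). In the 17 libraries without the 6 apart these values were -0.762, -0.645 and -0.581, and after the share of reads outside genes was regressed out they were -0.694, -0.784 and -0.686. RIN3 ran against SLC35A3 (rho = -0.625) and ACADM (rho = -0.554), with -0.718 and -0.608 in the same 17 libraries. PIK3C3 ran against BHLHE40 (rho = -0.441), with -0.51 in those libraries.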
